A study of Caenorhabditis elegans with 2 samples.

Results

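The regions described here are the starts of all 261 nuclear microRNA (miRNA) genes of Caenorhabditis elegans, out of 46890 nuclear gene starts of every kind in the annotation. They were chosen by the gene biotype miRNA in the Ensembl annotation of WBcel235 (ce11) and not by any measured value. Each region, called the start window, ran from 1000 bp upstream to 200 bp downstream of the annotated start on the strand of the gene. Every window was scored by the chromatin immunoprecipitation sequencing (ChIP-seq) peaks of RNT-1, the RUNX transcription factor of the worm, from whole embryos.

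The study had 1 group with 2 biological replicates and no second condition. The animals were hermaphrodites of strain OP462, with the genotype unc-119(tm4063) III; wgIs462, an integrated transgene that supplies RNT-1 with a C-terminal GFP-FLAG tag. Late embryos were taken 5 h after synchronization by egg bleaching, and the precipitation used an antibody against GFP per the sample notes, although the label for the antibody names rnt-1. All animals came from this 1 transgenic line, no cell types were separated, and no value from an untagged strain was used.

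miRNAs are cut from hairpin precursors and guide Argonaute proteins to partly complementary messenger RNAs, which are then silenced. Pairing rests mainly on the seed, bases 2 to 8 of the mature strand, so miRNAs with the same seed form a family. In the worm, the mir-35 and mir-51 families are needed for embryonic development, mir-1 is the conserved miRNA of muscle, and lin-4 and let-7 are the heterochronic miRNAs that time larval cell fates. RUNX factors act with a CBF-beta partner, and RNT-1 is best known for driving divisions of the seam cells of the epidermis.

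RNT-1 summits lay at the starts of the embryonic families and not at those of the heterochronic families, a difference that was not tested. The mature sequences of these families are shown because miRNA families are defined mainly by the seed. They were read from the RefSeq genome of WBcel235 at the annotated positions of the mature arms, with the seed in capitals. The first set below is the mir-51 family, of which all 6 members had a summit passing the irreproducible discovery rate (IDR) threshold in the start window.
mir-51: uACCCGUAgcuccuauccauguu
mir-52: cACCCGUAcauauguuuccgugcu
mir-53: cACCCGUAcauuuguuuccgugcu
mir-54: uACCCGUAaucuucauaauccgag
mir-55: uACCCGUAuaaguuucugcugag
mir-56: uACCCGUAauguuuccgcugag
The mir-35 family shares another seed, and 7 of its 8 members had such a summit, on 2 distinct summits. Its members at both ends of the main cluster, and mir-42 from a separate cluster, are shown.
mir-35: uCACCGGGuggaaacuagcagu
mir-41: uCACCGGGugaaaaaucaccua
mir-42: uCACCGGGuuaacaucuacaga
The 4 miRNAs with the next seed, mir-64, mir-65, mir-66 and mir-229, all shared 1 summit.
mir-64: uAUGACACugaagcguuaccgaa
mir-229: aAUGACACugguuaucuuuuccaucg
Of the bantam-like miRNAs, mir-58.1 differs from mir-80 in the last base of the seed, and both had a summit.
mir-58.1: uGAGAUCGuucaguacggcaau
mir-80: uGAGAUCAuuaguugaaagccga
Of all 261 miRNA genes, 13.8% had an IDR summit, and the next sets are too small to be set apart from that share. The heterochronic miRNAs shown next had one at 0 of 4 genes of the let-7 seed and 0 of 2 of the lin-4 seed.
let-7: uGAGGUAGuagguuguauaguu
mir-241: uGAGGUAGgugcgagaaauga
lin-4: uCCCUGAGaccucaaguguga

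The DNA at the strongest summits is shown because it is where tagged RNT-1 was found. Each line gives the summit base and 50 bases of ce11 on either side of it, read on the strand of the miRNA. Capitals mark any of the words TGTGGT and TGCGGT, the forms of the RUNX core, or of GAGAGA. Each word was searched on both strands, and GAGAGA on the other strand reads TCTCTC. The windows were chrIV:11026168-11026268 for mir-51, chrX:13145368-13145468 for mir-54, chrIII:8874397-8874497 for mir-90, all on the minus strand, and chrIV:3232879-3232979 on the plus strand for mir-58.1.
mir-51 summit: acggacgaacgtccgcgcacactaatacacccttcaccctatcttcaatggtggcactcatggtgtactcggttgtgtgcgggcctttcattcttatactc
mir-54 summit: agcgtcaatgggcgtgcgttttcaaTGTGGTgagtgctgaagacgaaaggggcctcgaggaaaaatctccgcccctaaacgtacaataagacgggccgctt
mir-90 summit: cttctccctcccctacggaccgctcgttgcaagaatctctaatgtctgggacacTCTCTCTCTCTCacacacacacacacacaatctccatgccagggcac
mir-58.1 summit: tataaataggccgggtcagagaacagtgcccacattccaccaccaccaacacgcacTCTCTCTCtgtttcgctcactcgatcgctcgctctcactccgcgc
The shared summit of mir-229 and mir-64 to mir-66 lay in chrIII:2172087-2172187 on the plus strand and held the word GAGAGA on both strands. The shared summits of mir-35 to mir-40, in chrII:11537214-11537314, and of mir-42 to mir-44, in chrII:11889517-11889617, both on the plus strand, held none of the words.
mir-229 summit: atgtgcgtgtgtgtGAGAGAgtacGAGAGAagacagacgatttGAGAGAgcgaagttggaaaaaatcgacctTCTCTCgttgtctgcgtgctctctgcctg
mir-35 summit: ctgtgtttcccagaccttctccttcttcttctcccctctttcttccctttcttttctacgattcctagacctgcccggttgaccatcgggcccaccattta
mir-42 summit: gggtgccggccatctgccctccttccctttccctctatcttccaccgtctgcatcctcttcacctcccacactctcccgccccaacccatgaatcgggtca

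Of the 261 miRNA genes, 36 had an IDR summit in the start window, or 13.8% (95% Wilson interval 10.1 to 18.5, covering counting error only). The background over protein-coding genes, scored at the gene start with the same window, was 6.11%. The miRNA interval lay above that share, although neighbouring miRNA genes can share 1 summit and are not independent. tRNA genes had 25.7% and snoRNA genes 24.3%, both above miRNA genes. snRNA genes had 8.53%, genes annotated as ncRNA 8.4%, lincRNA genes 7.22% and piRNA genes 0.97%. No test was run, since the study has no contrast, and shares are given as descriptions of these lists.

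**Figure D1:**
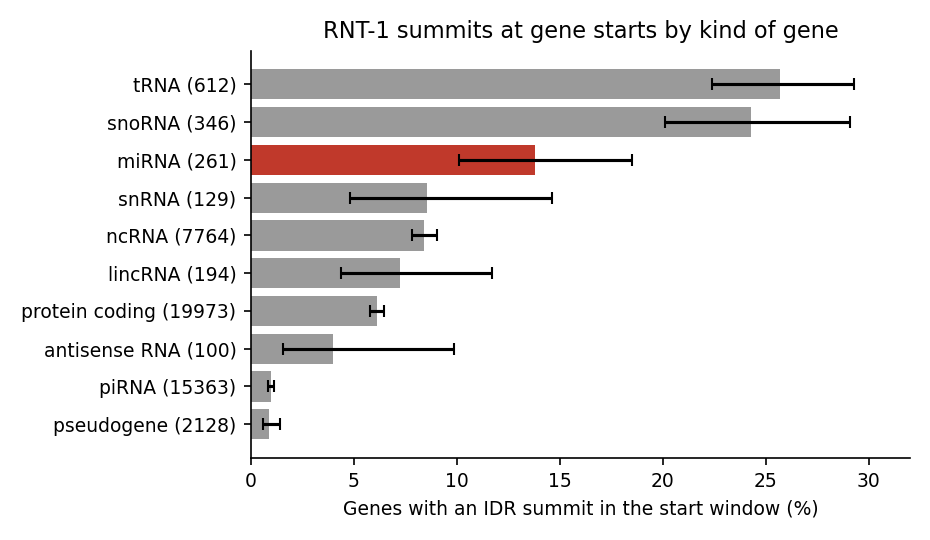
Bars give the percentage of nuclear genes of each Ensembl biotype with an IDR summit in the start window, with the number of genes in brackets and 95% Wilson intervals as error bars. The miRNA bar, at 13.8%, lies above protein-coding genes at 6.11% and below tRNA genes at 25.7% and snoRNA genes at 24.3%.

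The list called on both replicates together, which keeps weaker background regions, placed a summit in the windows of 94 miRNA genes, or 36% (30.4 to 42). The same share of protein-coding genes was 28.6%, so the margin was narrower than with the IDR list. When each replicate list was ranked by the authors' signal and cut at its top 1931 regions, the length of the IDR list, 25 miRNA genes had a top summit in both replicates. That was 9.58% (6.57 to 13.8) against 4.71% of protein-coding genes. All 25 were among the 36 with an IDR summit, another 3 were in the top of replicate 1 only and 8 in that of replicate 2 only.

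The 36 genes rested on 25 distinct summits, 1.3% of the 1923 nuclear IDR summits. With miRNA genes on the same strand joined into 1 locus where at most 5000 bp lay between them, the 261 genes made 216 loci, and 23 loci, or 10.6%, had a summit. Of 24 clusters of at least 2 genes, 7 had one, and of 192 single genes, 16 had one. Sharing of summits within clusters thus raised the count of genes, and the share of loci was lower than the share of genes.

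Signals at miRNA starts were moderate within the IDR list. The authors' signal, a value with no stated scale that was compared within a list only, had a median of 164 over the 25 summits (interquartile range 120.0 to 191, range 98.5 to 322). Over all nuclear IDR summits the median was 138 (112 to 184), and the strongest summit reached 1809. The highest miRNA summit, that of mir-51, ranked 81 in the list.

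Both replicates held a region at every one of the 25 summits. Ranks ran from 78 to 2509 in replicate 1, with a median of 893, and from 71 to 3495 in replicate 2, with a median of 530. The signals of both replicates had a Spearman correlation of 0.701 over these summits, a description over positions that were chosen partly on the signal of both. The 25 summits lay in 24 IDR regions, and both summits of mir-52 entered the ranks and the correlation with the same replicate values. The summit of mir-57 differed most in rank, at 1554 in replicate 1 and 3495 in replicate 2.

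**Figure D2:**
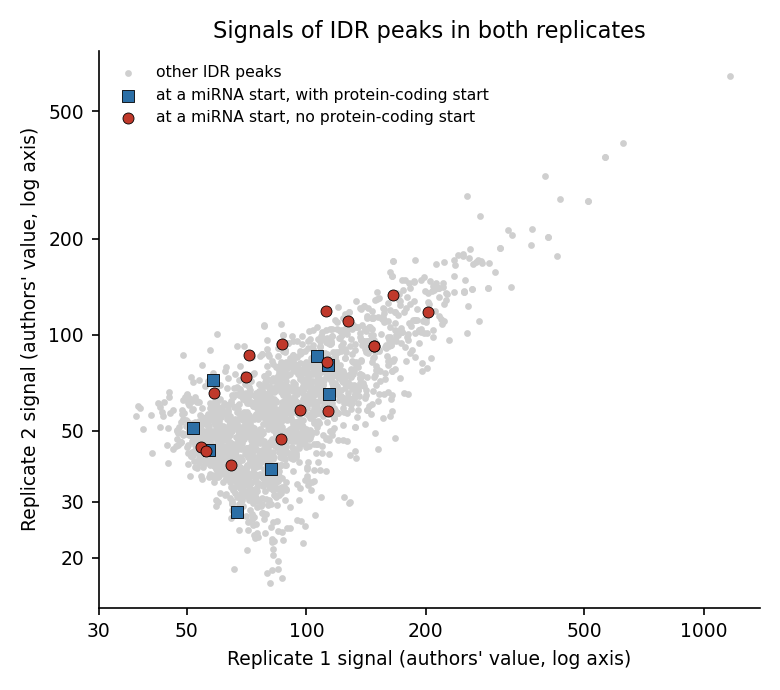
Each point is an IDR peak by the authors' signal in replicate 1 and in replicate 2, both on log axes. Peaks at miRNA starts, as red circles without and blue squares with a protein-coding start, lie inside the cloud of the other nuclear IDR peaks in grey, with mir-51 at 202.2 and 117 and mir-57 at 66.8 and 27.9.

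The mir-51 family had the strongest and most separate summits. Its 6 members carried 5 distinct summits at 3 loci. The members share their seed, printed above, with vertebrate miR-100, and their joint loss is lethal to worm embryos. At mir-51 the signal was 202.2 in replicate 1 (rank 78), 117 in replicate 2 (rank 107) and 322 in the IDR list, with the summit 106 bp upstream of the start of the gene, which spans chrIV:11026013-11026112. Its neighbour mir-53, on the same strand, had its own summit 108 bp upstream at 169, with 113 in replicate 1 (rank 464) and 57.8 in replicate 2 (rank 906). These summits were 1581 bp apart, so each gene of the pair had a summit at nearly the same distance from its start.

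mir-52, elsewhere on chromosome IV, had a pair of summits inside 1 region, which ran from 14033363 to 14034157. The stronger, at 203, lay 233 bp upstream of the start and the other, at 184, lay 6 bp upstream, 227 bp downstream of the first. The region had 148 in replicate 1 (rank 219) and 91.9 in replicate 2 (rank 263). A stronger IDR summit, at 342 and rank 61, lay 1041 bp upstream of mir-52 and so just outside the window, with 207 in replicate 1 (rank 72) and 137 in replicate 2 (rank 61). Of the pair inside the window, the second lay at the edge of the hairpin itself, and the mature mir-52 strand began at 14034024, within 50 bp of that second summit.

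On the X chromosome, mir-54, mir-55 and mir-56 lie on the minus strand inside the protein-coding gene F09A5.3, which is read from the opposite strand. They shared 1 summit 324 bp upstream of mir-54 and 631 bp upstream of mir-56, with a signal of 288. It ranked 154 in replicate 1, at 165, and 71 in replicate 2, at 133, the best rank of any miRNA summit in that replicate. This was also one of the summits with a TGTGGT core within 50 bp, visible in capitals in the sequence above. A second summit, at 139, lay on the other side of the cluster, 911 bp from the first and 323 bp upstream of F09A5.15, a miRNA gene annotated on the opposite strand at mir-55.

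The mir-35 family had weaker summits, and most of its members shared one. The genes mir-35 to mir-41 form a cluster of 797 bp on chromosome II, on the opposite strand inside Y62F5A.9, and the family is expressed mainly in oocytes and embryos. A single IDR summit 344 bp upstream of mir-35 fell in the windows of mir-35 to mir-40, with a signal of 138 and rank 975. It had 86.3 in replicate 1 (rank 912) and 47.0 in replicate 2 (rank 1371), within the top 1931 of each.

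mir-41, the last gene of that cluster, had no IDR summit in its window because the shared summit lay 1044 bp upstream of its start. The window of mir-41 held a pooled region at 57.3, rank 4798. The eighth member, mir-42, belongs to a separate cluster with mir-43 of the mir-2 family and mir-44, and all of these shared a summit 244 bp upstream of mir-42. That summit was near the lower end of the IDR list at 99.9, with 54.4 in replicate 1 (rank 2284, outside the top 1931) and 44.5 in replicate 2 (rank 1520). Further upstream of mir-35, at 2814 and 2613 bp, lay stronger IDR summits of 384 and 283 in the start window of the protein-coding gene Y62F5A.12, the first also in that of mdt-8, outside the miRNA window.

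**Figure D3:**
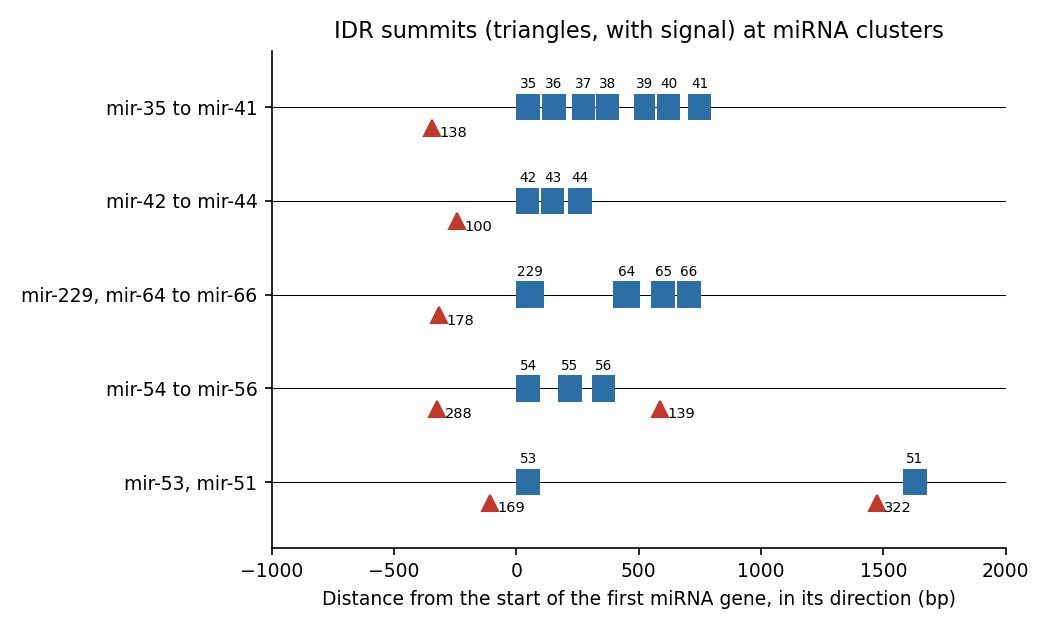
Each row is a miRNA locus drawn to scale in bp from the start of its first gene, in the direction of transcription, with genes as blue boxes labelled by number and IDR summits as red triangles with the authors' signal. In the clusters of mir-35, mir-42 and mir-229 a single summit lies upstream of the first gene, while mir-53 and mir-51 have a summit each and the mir-54 cluster has one on either side, the one at 139 being assigned to F09A5.15.

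The mir-64 family sits in 1 cluster on chromosome III with mir-229, within gcn-1 and on its strand. Its shared summit lay 315 bp upstream of mir-229 and 971 bp upstream of mir-66, so all 4 genes were within reach of the window. The signal was 178, with 86.9 in replicate 1 (rank 893) and 93.7 in replicate 2 (rank 247). This summit lay in the start window of no gene of another kind. With windows of 500 bp to 100 bp it counted for mir-229 alone, and the mir-35 and mir-51 families then had 8 genes with a summit in place of 13.

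Of the 5 bantam-like genes found, mir-58.1 and mir-80 had a summit and mir-81, mir-82 and mir-58.2 had none. With the copies mir-2209.1, mir-2209.2 and mir-2209.3 and Y73B6A.17, which Ensembl names mir-58c, the count was 2 of 9. mir-58.1, within Y67D8A.2, is one of the most abundant miRNAs of the worm, and its summit lay 325 bp upstream at 226, with 127 in replicate 1 (rank 343) and 110 in replicate 2 (rank 136). mir-80 had a summit 196 bp upstream at 191, with 113 in replicate 1 (rank 469) and 81.9 in replicate 2 (rank 359). The genes mir-81 and mir-82, which share the seed of mir-80, had an IDR summit of 170 between them on the X chromosome, 1634 and 2648 bp downstream of their starts and outside both windows.

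The muscle miRNA mir-1 had an IDR summit 493 bp upstream of its start at 128, rank 1105. Its signal was 58.5 in replicate 1 (rank 1985, just outside the top 1931) and 65.7 in replicate 2 (rank 670). Another IDR summit of 162 lay 2388 bp upstream, in the start window of the protein-coding gene T09B4.3. mir-1 was therefore within the IDR list but in the lower part of it, and the call rested more on replicate 2.

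None of the 9 heterochronic genes had an IDR summit, a set too small to be set apart from the background share. They were the 6 genes with the seeds printed above and mir-793, mir-794 and mir-795, listed as further let-7 relatives. Of these genes, only mir-241 and lin-4 had a pooled region in the window. mir-241, which acts with mir-48 and mir-84 in early larval timing, had 92.6 at 532 bp upstream, rank 2056, just under the lowest IDR signal of 95.8. Its region had 53.1 in replicate 1 (rank 2409) and 40.6 in replicate 2 (rank 1817), so it was among the top 1931 of replicate 2 alone.

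lin-4, within F59G1.4 and on its strand, had a pooled signal of 64.3 at 362 bp upstream, rank 3890, with 45.7 in replicate 1 and 23.0 in replicate 2. The nearest IDR summit to lin-4 was 57446 bp away, and those nearest to mir-48, mir-84 and mir-237 were 13353, 34078 and 51997 bp away. For let-7, the annotated gene of 1732 bp is far longer than a hairpin, and an IDR summit of 116 lay 1843 bp upstream of its start and 2909 bp from the mature strand. That summit, with 72.8 in replicate 1 (rank 1316) and 43.0 in replicate 2 (rank 1625), lay in the start window of the protein-coding gene C05G5.2. It entered the window of let-7 when windows of 2000 bp to 500 bp were used.

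**Figure D4:**
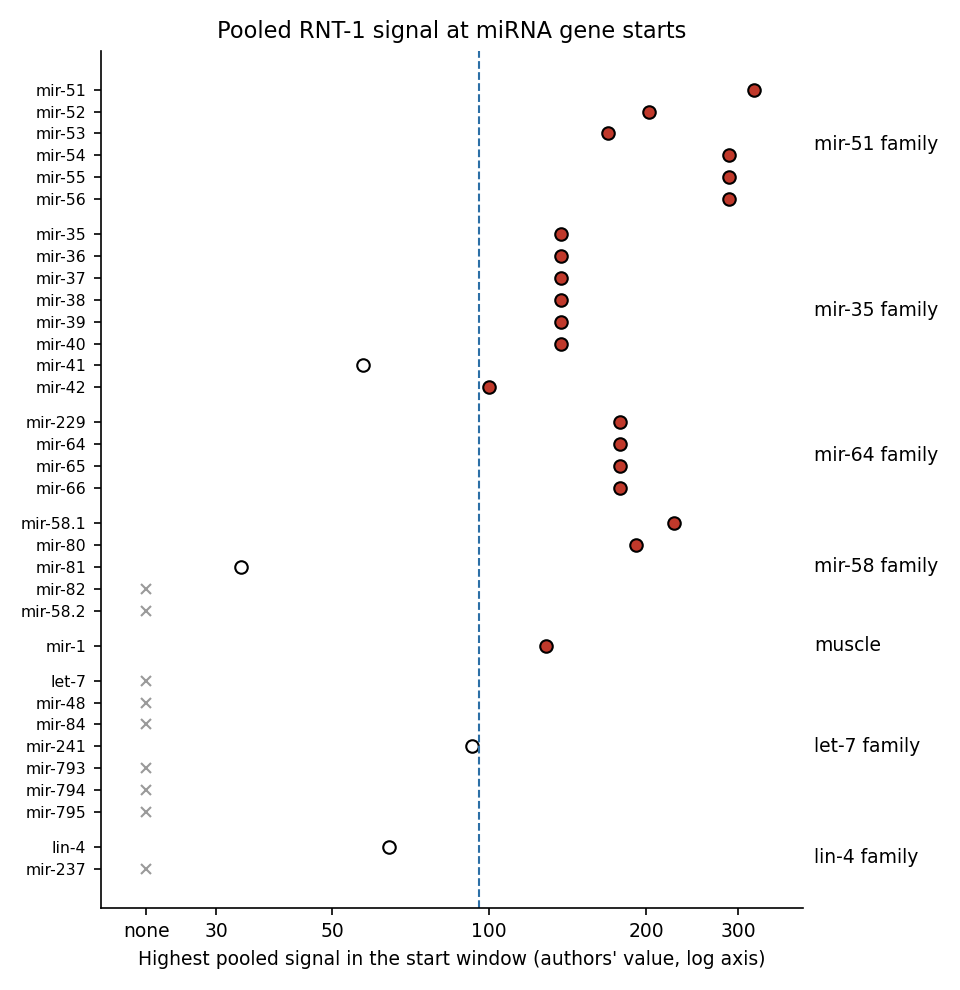
Each point is a miRNA gene by its highest pooled signal within the start window, on a log axis, filled in red where the summit is in the IDR list, open where it is not, and a grey cross where the window holds no pooled summit. The dashed line marks the lowest IDR signal of 95.8. All mir-51 family genes lie at 169 or more, while of the let-7 and lin-4 families only mir-241 at 92.6 and lin-4 at 64.3 have a point.

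Of 31 further studied miRNAs, 3 had an IDR summit, namely mir-90, mir-71 and mir-57, beside 13.8% of all miRNA genes. A pooled region lay in the windows of 14 of the 31, beside 36% of all miRNA genes. The other 11 of the 14, from mir-70 at 32.1 to mir-228 at 71.4, were all below the IDR limit. mir-90, within K01F9.2, was the strongest of these at 227, with 112 in replicate 1 (rank 481) and 119 in replicate 2 (rank 105), 363 bp upstream of the start. mir-90 and mir-80 start 8717 bp apart on the same strand of chromosome III.

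mir-71, known for its part in worm lifespan, and mir-2 lie in ppfr-1 on the same strand, with starts 7155 bp apart. mir-2 had a summit 340 bp upstream at 157, with 71.7 in replicate 1 and 86.5 in replicate 2, and a TGTGGT core within 50 bp of it. mir-71 had the lowest IDR signal of all miRNA summits, 98.5, at 386 bp upstream. Further upstream, outside the windows, lay a stronger IDR summit of 164 at 1924 bp from mir-2, and up to 5000 bp from mir-71 the strongest, at 168, was 1304 bp away. In the mir-44 and mir-2 families together, 3 of 8 genes had a summit, namely mir-2, mir-43 and mir-44, while mir-45, mir-61, mir-247, mir-250 and mir-797 had none.

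The mir-72 family and the neuronal miRNAs had no IDR summit, with 0 of 3 and 0 of 4 genes. Both sets are too small to be set apart from the 13.8% of all miRNA genes. mir-72 had a pooled signal of 31.2 and mir-73 and mir-74 shared one of 55.6, while the neuronal lsy-6, mir-790 and mir-791 had no pooled region. mir-124, a conserved miRNA of sensory neurons, had a pooled signal of 77.7 at rank 2790, with 68.6 in replicate 1 (rank 1479) and 18.4 in replicate 2 (rank 8192). Just inside the IDR list were mir-71 at 98.5, mir-57 at 99.6 and mir-353 at 99.9. The highest genes outside it were mir-79 at 93.7, mir-241 at 92.6, mir-8192 at 87.9, mir-124 at 77.7 and mir-253 at 75.3. The nearest genes on either side of the limit thus had similar signals.

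Some summits at miRNAs were shared with protein-coding genes. The summits of mir-354 at 192, mir-4929 at 185, mir-8186.2 at 183, mir-271 at 125, mir-5549 at 120.0, mir-5595 at 102, mir-353 at 99.9 and mir-57 at 99.6 also lay in the start window of a protein-coding gene, counting every annotated transcript start. Those genes included rps-20, rps-10 and rpl-24.1 of the ribosome, the elongation factor gene eef-1A.1 and unc-78. The summits of mir-8212 at 164 and mir-231 at 108 had no protein-coding start. For a summit in several windows, the position alone does not assign it to any of them.

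In total 8 of the 25 summits also lay at a protein-coding start and 17 did not. The 17 served 28 miRNA genes and included all summits of the mir-51, mir-35, mir-64 and bantam-like families. Their median signal was 169, against 122 for the 8 shared ones. Of all 25, 11 also lay in the window of a gene annotated as ncRNA, 1 in that of a lincRNA gene and 1 in that of a snoRNA gene. The summits of mir-8212 and mir-353 also lay in the window of a piRNA gene. None lay in that of a tRNA gene, and 7 had no other gene start. With windows of 500 bp to 100 bp 3 summits lay at protein-coding starts, and with windows of 2000 bp to 500 bp 15 did.

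**Figure D5:**
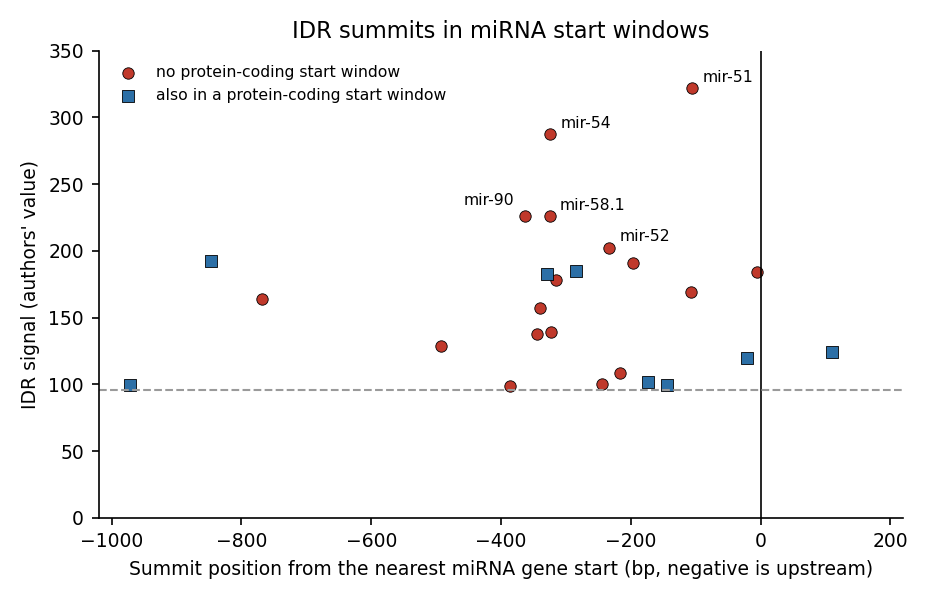
Each point is an IDR summit by the authors' IDR signal and by its distance in bp from a miRNA start. That start is the nearest among the miRNA genes with the summit in their windows. Blue squares also lie in a protein-coding start window and red circles do not. The dashed line is the lowest IDR signal, 95.8. All summits but that of mir-271 lie upstream of the start so chosen, with the strongest at mir-51 and mir-54. The summit at 139 plotted for F09A5.15 is nearer to mir-56, 280 bp downstream of its start and outside its window.

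Summits lay mostly upstream of the miRNA whose window held them, and not over it. Positions were taken relative to the nearest miRNA start whose window held the summit. The median was 315 bp upstream, and the range ran from 971 bp upstream to 110 bp downstream. By this measure 21 of 25 summits lay within 500 bp upstream. The summit at 139 counted for F09A5.15 was nearer to mir-56, 280 bp downstream of its start and outside its window. Most annotated miRNA genes are the hairpin, with a median length of 95 bp, and only 3 were longer than 200 bp. The start used here is therefore mostly that of the hairpin and not that of the primary transcript, and the window extends further upstream than downstream.

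The position of the miRNA gene relative to protein-coding genes went with different shares. Of 155 miRNA genes outside protein-coding genes, 13 had a summit, or 8.39%, against 13 of 74, or 17.6%, inside one on the same strand. By locus these counts were 10 of 125 outside and 10 of 69 inside on the same strand. Of 32 on the opposite strand inside a protein-coding gene, 10 had one, but 9 of these belonged to the clusters of mir-35 and mir-54, and by locus the count was 3 of 23. Windows that held any annotated transcript start of a protein-coding gene had a summit in 7 of 61 cases, 11.5%, and windows without one in 29 of 200, 14.5%.

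The count of miRNA genes with a summit is given by chromosome beside the share of protein-coding gene starts there. It was 14 of 49 on chromosome II, of which 9 belong to the clusters of mir-35 and mir-42, against 5.77% of protein-coding genes. It was 8 of 27 on chromosome III, of which 4 belong to the cluster of mir-229, against 9.05%. On chromosome I the count was 5 of 33, against 8.13%. On chromosome IV it was 4 of 50, on the X chromosome 5 of 74 and on chromosome V 0 of 28, against 5.46%, 6.7% and 3.74%. By genes, chromosome V thus had the lowest share for both kinds of gene and chromosome III the highest. Clusters raised the counts of miRNA genes, which rested on 7 distinct summits on chromosome II and 5 on chromosome III.

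The core words were at a smaller share of miRNA summits than of all summits, and the share with GAGAGA was larger, with few summits behind either. The core words TGTGGT or TGCGGT lay within 50 bp of 2 of the 25 summits, or 8%, against 14.8% of all nuclear IDR summits. Those were mir-54 and mir-2, both with TGTGGT, a word at 8.42% of all nuclear IDR summits. TGCGGT lay at 0 of the 25, against 6.97% of all. The word GAGAGA lay at 9 of 25, or 36%, against 29.7% of all. The G+C content of these windows had a median of 53.5% at miRNA summits and 49.5% at all summits, and it ranged from 38.6% at the second mir-52 summit to 69.3% at the first.

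Genes that act with miRNAs were scored at any annotated transcript start. By this scoring 6.76% of all protein-coding genes had an IDR summit, and the counts here were 2 of 8 and 3 of 14. Of 8 genes for miRNA processing and silencing, ain-1, a GW182 protein, had 923 (rank 3 in all lists) and the Argonaute gene alg-1 had 97.4, near the lower end of the IDR list. The Microprocessor genes drsh-1 and pash-1 and the Dicer gene dcr-1 had pooled signals of 42.3, 57.5 and 34.3 only. Of 14 genes reported as targets or partners of miRNAs, 3 had an IDR summit. These were nhl-2, a cofactor of the silencing complex, at 381, and lin-28 and lin-14, targets of lin-4, at 149 and 122. The let-7 targets lin-41 and hbl-1 had no pooled region at a start, and let-60 had none in any list.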

How the data were processed

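RNT-1 ChIP-seq region lists of 2 biological replicates were used as deposited on ce11 (WBcel235): 1 list per replicate with background regions, 1 called on both replicates and 1 thresholded by IDR, per the deposited file descriptions. The signal of each region is a value the authors deposited with no stated scale, used within a list only. The deposited −log10 q-value was 2.07 for all 1931 IDR regions and ranked nothing. Other columns deposited by the authors are positions and summit offsets. Aligner, peak caller and threshold of the IDR step: not given in the sources used here. Each background list was derived from alignments and a further file, and the labels name a possible control. Lists on ce10 were not used. Read depth is unknown.

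Genes came from Ensembl release 115, names and mature arms from RefSeq WBcel235, and all 261 miRNA genes matched a RefSeq symbol by WormBase ID. The start window spanned 1000 bp before and 200 bp after each gene start. For miRNAs with a known main strand, that arm was taken from background knowledge. Shares have 95% Wilson intervals, and no test was run. The counting was tested on simulated data. Named genes are every miRNA with an IDR summit, the members of the listed families, the 5 highest miRNAs without an IDR summit, and those nearest to the limit. Of the list of other studied miRNAs, those without an IDR summit are mostly given as counts. The names mir-58, mir-1834 and mir-2209 were not found as such. The members and lists were chosen with earlier results of these data known. Python 3.11.15, pandas 2.3.3, numpy 2.4.6, scipy 1.17.1 and matplotlib 3.10.9 were used.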

Additional observations from a re-analysis of the deposited data

How the results depend on the processing

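Of 55 values under other settings, 39 stayed within 1.5 times the reported count or inside the 95% order-statistic interval of the reported median, and 16 moved. With the 965 strongest IDR regions (and the 9896 strongest pooled regions), 19 miRNA genes, 15 summits, 3 summits at protein-coding starts and 6 genes of the mir-35 and mir-51 families were left, and the median signal was 184.7. With windows of 500 bp to 100 bp, 15 genes had a top summit in both replicates, 3 summits lay at protein-coding starts and 8 genes of the mir-35 and mir-51 families had a summit. With windows of 2000 bp to 500 bp there were 38 summits, 15 of them at protein-coding starts, and 1 heterochronic gene, let-7. With a cluster gap of 1000 bp, 4 clusters had a summit.

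Without replicate 1 or 2, taking the top regions of the other, the number of genes ran from 29 to 35, of distinct summits from 21 to 24, of genes with any listed region from 93 to 104, of summits at protein-coding starts from 5 to 6, of genes of both embryonic families from 12 to 13, of heterochronic genes from 0 to 1 and of clusters from 6 to 8. The median signal ran from 68.9 to 106.5, on the scale of the list used. Replicate 2 alone lost mir-231, mir-5549 and mir-57 and added mir-241 and mir-79. Replicate 1 alone lost mir-1, mir-271, mir-353, mir-42, mir-43, mir-44, mir-5595 and mir-71 and added mir-124. No paired analysis was possible because there is 1 group.

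Read depth is unknown. Annotated starts are mostly hairpin starts, and the members of a cluster share a summit. A summit near several starts cannot be assigned to 1 of them, and no value from untagged embryos was used.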

Other observations

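The share of miRNA genes with an IDR summit fell with the number in the miRNA name, a grouping chosen after the values were seen. The first group held names up to 90, let-7, lin-4, lsy-6 and the genes whose RefSeq name has no miRNA number. In it 26 of 63 genes had one, or 41.3%, and by locus 14 of 47. The genes without a number were F09A5.15, Y73B6A.17, F39B1.3 and B0462.6, and of these only F09A5.15 had an IDR summit. Ensembl names F09A5.15 mir-55b and Y73B6A.17 mir-58c. It names B0462.6 mir-12134, a number above 400, and gives F39B1.3 no number, so the first group is not defined by number alone. Among numbers from 91 to 400 it was 5 of 58, or 8.62%, and above 400 it was 5 of 140, or 3.57%. Pooled regions were present at 44, 20 and 30 genes of these groups. Numbers were mostly given to miRNAs in the order of their discovery. All 5 distinct summits of the mir-51 family and both of the mir-35 family fall in the first group.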
